A study of Mus musculus with 20 samples.

Results

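The cell cycle and DNA replication genes described here are a list of 45 mouse genes, picked by name from the 55335 gene IDs of a raw count table of heart RNA-seq. All 45 were found, each under 1 gene ID. They fall into 25 genes of mitosis, 10 genes of DNA replication and 10 genes that control the G1 phase. The hearts came from OGFOD1-KO and WT mice of the C57BL/6N strain, aged 3 to 5 months. OGFOD1 is a dioxygenase that hydroxylates a ribosomal protein. Isoproterenol, an agonist of beta-adrenergic receptors that is used to stress the heart, or its vehicle was given for 2 weeks from an osmotic minipump. The 4 groups were KO hearts with isoproterenol (KO iso), KO hearts with vehicle (KO vehicle), WT hearts with isoproterenol (WT iso) and WT hearts with vehicle (WT vehicle), with 5 libraries in each. Every group also received sodium ascorbate in PBS, so no group was without it. The nature of the KO allele, and whether it is absent from all cells or from cardiomyocytes only, is not given in the sources used here.

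Cells enter the cycle when D-type cyclins bind and activate Cdk4 and Cdk6, which frees E2F factors from the retinoblastoma proteins. Cyclin E with its kinase then drives the start of DNA replication, for which the Mcm proteins form the helicase, Pcna the sliding clamp, and Tyms, Rrm1 and Rrm2 provide nucleotides. The mitotic genes act later, in spindle assembly, chromosome segregation and cytokinesis. Most adult mouse cardiomyocytes have left the cycle, and much of the division in the adult heart takes place in fibroblasts, endothelial cells and leukocytes.

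Genes of the G1/S transition are classically switched by E2F sites in their promoters. Genes of mitosis are switched by a cell cycle genes homology region (CHR), bound by the DREAM and MuvB complexes, often beside CCAAT boxes bound by NF-Y. Promoter stretches are printed for the 3 of the 4 members with a changed level that had an entry in the RefSeq table (Kif11, Mcm2 and Cdk6), and for Mki67, Cdc20 and Mcm6 as examples of each pattern. Each is the 150 bases before the RefSeq gene start, on build GRCm38.p6 and on the strand of the gene. Capitals mark a CHR (TTTGAA, or TTCAAA for the other strand), a CCAAT box (CCAAT, or ATTGG for the other strand) or an E2F site (TTTCCCGC, TTTCGCGC, TTTGCCGC or TTTGGCGC, or their reverse complements). The positions are chr19:37376232-37376381 (plus strand) for Kif11, chr7:135716380-135716529 (minus strand) for Mki67, and chr4:118437344-118437493 (minus strand) for Cdc20. They are chr6:88898781-88898930 (minus strand) for Mcm2, chr1:128359706-128359855 (minus strand) for Mcm6, and chr5:3343743-3343892 (plus strand) for Cdk6.
Kif11: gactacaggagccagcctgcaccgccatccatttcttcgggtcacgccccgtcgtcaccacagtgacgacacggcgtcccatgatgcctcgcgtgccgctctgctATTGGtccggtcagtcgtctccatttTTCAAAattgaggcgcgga
Mki67: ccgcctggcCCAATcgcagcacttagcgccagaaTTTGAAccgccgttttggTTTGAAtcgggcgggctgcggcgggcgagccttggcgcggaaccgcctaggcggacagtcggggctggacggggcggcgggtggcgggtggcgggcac
Cdc20: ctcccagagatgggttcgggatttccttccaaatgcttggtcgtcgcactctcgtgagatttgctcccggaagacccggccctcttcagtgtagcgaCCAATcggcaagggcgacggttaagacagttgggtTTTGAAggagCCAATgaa
Mcm2: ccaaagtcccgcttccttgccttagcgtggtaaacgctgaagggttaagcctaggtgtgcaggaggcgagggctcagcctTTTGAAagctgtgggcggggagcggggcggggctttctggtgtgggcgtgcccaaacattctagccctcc
Mcm6: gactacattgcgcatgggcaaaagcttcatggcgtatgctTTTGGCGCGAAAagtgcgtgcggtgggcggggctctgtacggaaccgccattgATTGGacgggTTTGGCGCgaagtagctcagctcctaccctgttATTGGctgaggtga
Cdk6: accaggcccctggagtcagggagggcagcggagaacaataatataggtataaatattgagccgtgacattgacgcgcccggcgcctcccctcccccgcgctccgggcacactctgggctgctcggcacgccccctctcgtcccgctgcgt

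In the Kif11 stretch the CHR began 19 bases and the CCAAT box 45 bases before the start, both on the other strand. In that of Mki67 a pair of CHRs stood at 116 and 98 bases before the start, with a CCAAT box at 141. The Mcm2 stretch held a CHR at 70 bases. In that of Mcm6 a pair of E2F matches on opposite strands overlapped at 110 and 106 bases before the start, and another stood at 47. No searched motif was found in the Cdk6 stretch, which says only that these letters are not in it. The RefSeq start of Cdk6 lies 2408 bases inside the gene as GENCODE places it, and the bases before the GENCODE start were not searched. Of the 33 tested members in the table, only Cdk6 and Mcm7 (539 bases inside) had no RefSeq start within 200 bases of the GENCODE start.

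The search was run on both strands over 250 bases before to 50 bases after the start, for the 37 members that the RefSeq table holds. A member with 2 annotated starts counts if either window holds the motif. Tpx2, Kif20a, Aurkb, Ccna2, Mcm4, Ccnd1, Ccnd2 and Ccne2 are named only. A CHR was found in 16 of 21 mitotic members, 1 of 9 replication members (Mcm2) and 0 of 7 G1 control members, against 20.2% of all 27025 symbols in the table. A CCAAT box was found in 18 of 21 mitotic, 8 of 9 replication and 2 of 7 G1 control members, against 41.1% of all symbols. An E2F site was found in 1 of 21 mitotic members (Cdk1), 4 of 9 replication members (Mcm3, Mcm5, Mcm6 and Mcm7) and 0 of 7 G1 control members, against 2.6% of all symbols. A CHR and a CCAAT box together were found in 15 of 21 mitotic members, against 7.97% of all symbols. These are matches of letters, with no test, and a CHR of 6 letters or a CCAAT box of 5 is common by its length. The E2F search covered only the exact strings given above. Sites with other letters were not searched, so a member with no match is not shown to lack an E2F site.

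**Figure D1:**
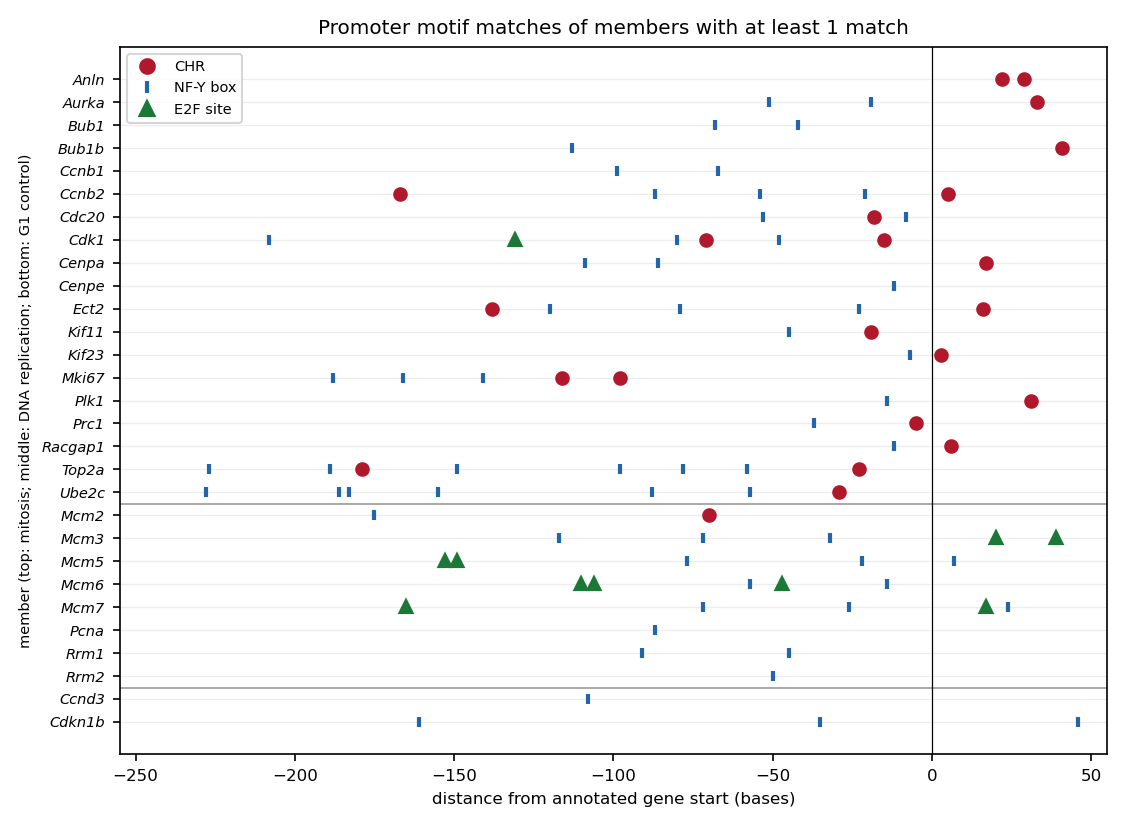
Positions of the motif matches in the 29 members with at least 1 match, as the distance of the leftmost base of a match from the RefSeq gene start in bases; NF-Y box stands for the CCAAT box. Circles (CHR) are in 16 mitotic rows and 1 replication row (Mcm2), triangles (E2F site) are in 4 replication rows and 1 mitotic row (Cdk1), and for members with 2 annotated starts the one with more matches is drawn.

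The RNA was total RNA from powdered whole hearts, made into stranded libraries. Total counts ran from 14609808 to 43671055 per library, of which 55.5% to 61.9% were mitochondrial. Ogfod1 itself had 2.39 to 4.13 CPM (counts scaled to the size of the library) in the 10 KO libraries and 16.9 to 21.8 CPM in the 10 WT libraries, in every library the direction its label gives. KO iso replicate 5 and WT vehicle replicate 2 stood apart from the other libraries of their groups: the chi-square per gene of a pair of libraries was 20.0 to 37.5 for pairs with KO iso replicate 5, 59.3 to 67.9 for pairs with WT vehicle replicate 2, and 3.82 to 18.6 for all other pairs within a group. Whether the 5 libraries of a group are 5 mice is not stated in the labels, so p-values measure the spread between libraries, which may be technical. In whole-heart RNA, fewer cells of a type and less RNA per cell cannot be told apart.

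Mitotic genes had few counts, replication genes had more, and the median G1 control gene had the most. On the scale of CPM per kilobase of exon, averaged over 20 libraries, mitotic members had levels of 0.049 (Bub1, a spindle checkpoint kinase) to 1.07 (Cenpa, the histone H3 variant of centromeres), with a median of 0.181. Replication members had levels of 0.248 (Tyms, thymidylate synthase) to 4.15 (Pcna), with a median of 0.704. G1 control members had levels of 0.106 (E2f1) to 7.32 (Ccnd1, cyclin D1), with a median of 2.70. In raw counts the median member had 16.5 counts per library in the mitotic group, 80 in the replication group and 311 in the G1 control group. The median coefficient of variation within groups was 34.8% for mitotic, 15.0% for replication and 15.5% for G1 control members, where counting error alone gives 26.5%, 11.5% and 5.79%.

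**Figure D2:**
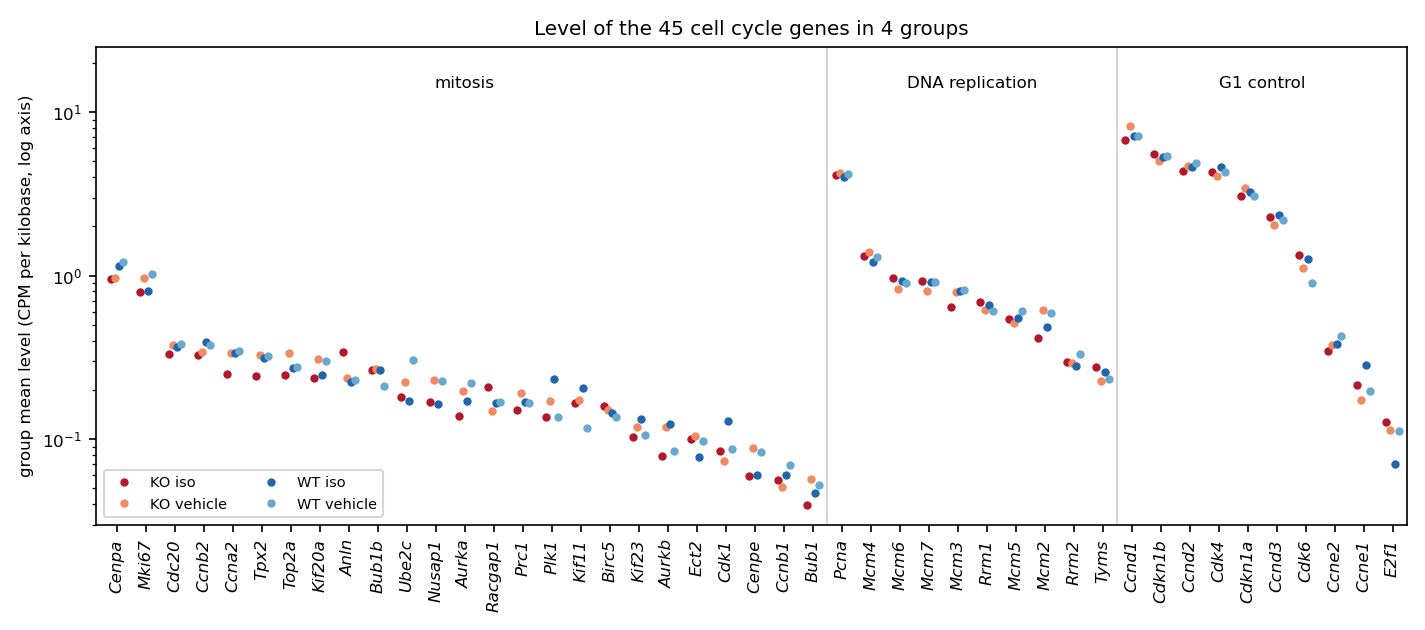
Mean level of each of the 45 members in KO iso, KO vehicle, WT iso and WT vehicle, in CPM per kilobase of exon on a log axis, ordered within each role by the mean over all libraries. The 4 group means of a member lie close together compared with the range of levels between members, and only Cenpa among the mitotic members exceeds 1 on the mean of all libraries.

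The 40 members that passed a filter on low counts (21 mitotic, 10 replication, 9 G1 control) were tested in a fit of all 14878 genes with edgeR's quasi-likelihood test, and p-values were adjusted over all of them by Benjamini-Hochberg. In KO hearts 2 of the 40 fell with isoproterenol, Mcm2 and Ccnd1, where 9.03% of all tested genes passed in either direction and 4.29% were lower. In WT hearts 2 of the 40 rose with isoproterenol, Kif11 and Cdk6, where 8.76% of all tested genes passed and 4.64% were higher. Averaged over both genotypes, Cdk6 rose and Mcm2 fell, where 18.8% of all tested genes passed. The members at an unadjusted p under 0.05 numbered 5 in KO, 4 in WT and 6 in the average. Of all 14878 tested genes, 3435 had such a p in KO, 3421 in WT and 4709 in the average (edgeR). Each of these is a larger share than that of the members. The median log2 fold change of the 40 was −0.04 in KO and −0.01 in WT, beside 0.01 in KO and 0.00 in WT over all tested genes. Each share of members that passed lay near or under that of all genes.

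**Figure D3:**
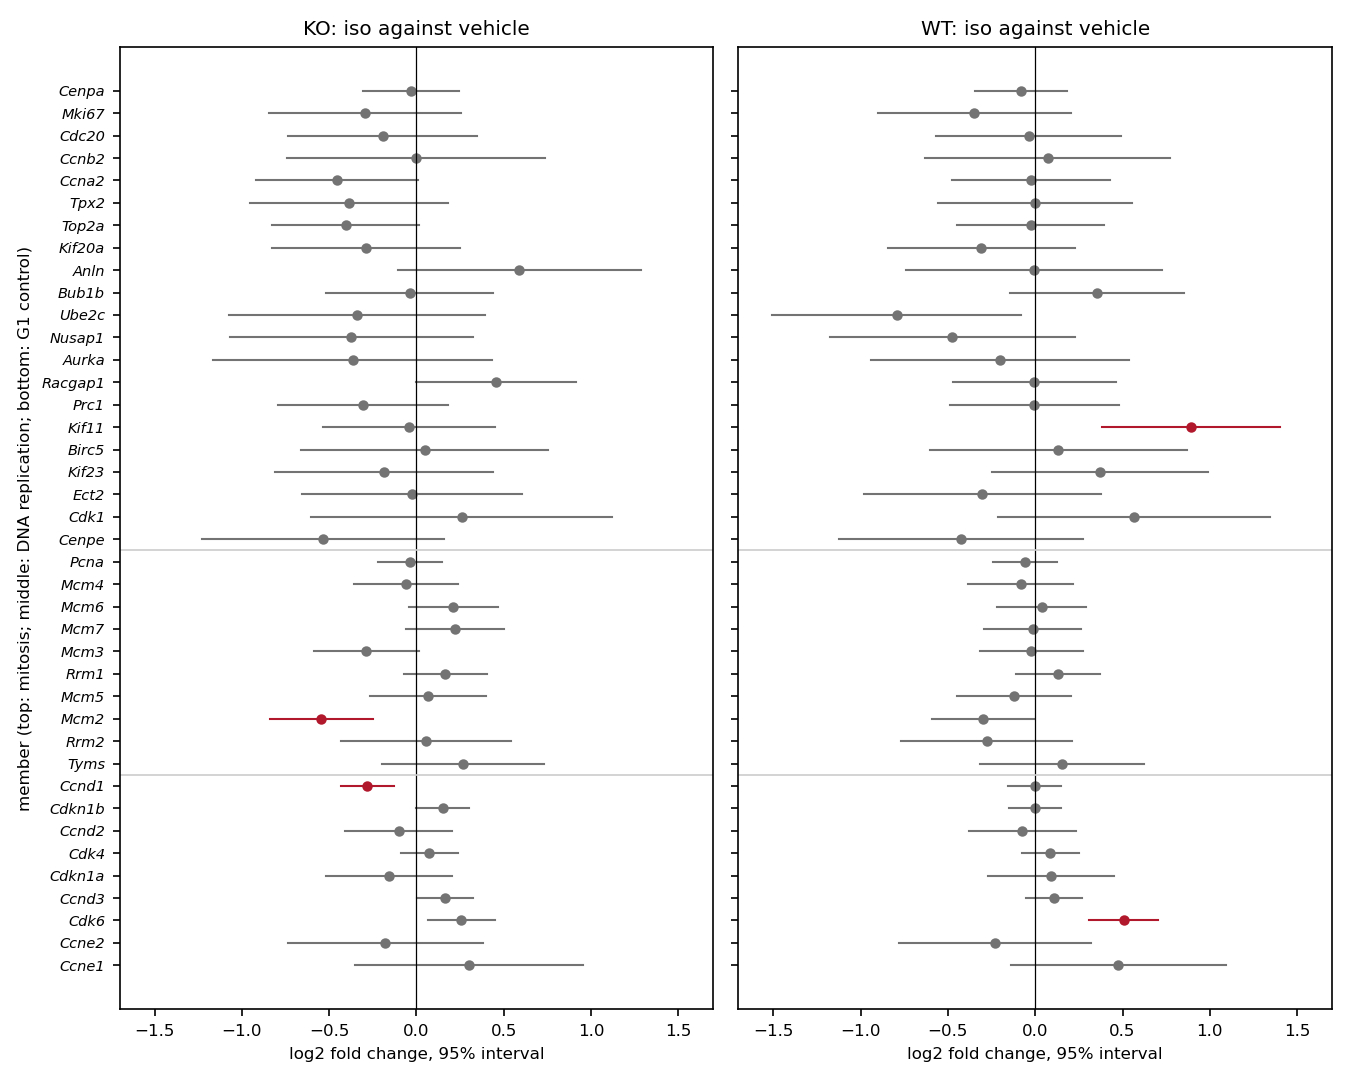
Log2 fold changes of the 40 tested members, isoproterenol against vehicle, in KO (left) and WT (right), with 95% intervals; red marks an adjusted p under 0.05. Mcm2 and Ccnd1 are red in KO and Kif11 and Cdk6 in WT, and the intervals are widest among the mitotic members.

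Among the mitotic members, Kif11, the kinesin motor that pushes spindle poles apart, was the only one of 21 tested that passed in any comparison. It had 1.85, 1.46, 1.50, 1.85 and 1.05 CPM in WT iso hearts, against 1.17, 1.26, 0.658, 0.669 and 0.585 CPM in WT vehicle hearts. WT iso replicates 1 to 4 lay above all WT vehicle libraries, replicate 5 lay below WT vehicle replicates 1 and 2, and the groups overlapped. The log2 fold change of Kif11 in WT was 0.89 (95% interval 0.38 to 1.40, SE 0.250), and it passed (adjusted p = 0.0214, edgeR). The call rested on 13 to 79 counts per library over the series. It was lost without WT iso replicate 4 or without WT vehicle replicate 3, 4 or 5, with a log2 fold change of 0.78 to 0.82 and a highest adjusted p of 0.0810 (edgeR). Without KO iso replicate 5 and WT vehicle replicate 2 together it was 1.04 (adjusted p = 0.00890, edgeR). In KO hearts Kif11 had 1.10, 1.08, 1.85, 0.852 and 1.30 CPM with isoproterenol, against 1.38, 1.21, 1.66, 0.834 and 1.37 CPM with vehicle. These groups overlapped over nearly their whole range (log2 fold change −0.04, 95% interval −0.54 to 0.45). The response in KO minus that in WT was −0.94 (SE 0.347), with an adjusted p of 0.518 in edgeR, and so was not shown to differ between the genotypes. Kif11 lies at chr19:37376403-37421859 (GRCm38, ENSMUSG00000012443.4).

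Mki67, which encodes the Ki-67 protein of cycling cells, had the most counts of the mitotic members (69 to 402 per library). It had 7.28, 9.46, 8.56, 6.02 and 8.55 CPM in KO iso hearts, against 6.25, 12.0, 12.5, 7.70 and 10.6 CPM in KO vehicle hearts. It had 14.0, 5.65, 8.41, 7.43 and 4.82 CPM in WT iso hearts, against 14.2, 11.1, 8.67, 7.52 and 9.80 CPM in WT vehicle hearts. In each genotype the groups overlapped, and WT iso replicate 1 lay far above the other 4 libraries of its group. The log2 fold change was −0.29 in KO (95% interval −0.85 to 0.26, adjusted p = 0.554, edgeR) and −0.35 in WT (−0.90 to 0.21, adjusted p = 0.464, edgeR). Averaged over genotypes it was −0.32 (adjusted p = 0.250, edgeR), and without WT iso replicate 1 it passed at −0.46 (adjusted p = 0.0477, edgeR).

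The other mitotic members that carry the range of values did not pass. Top2a, the topoisomerase that untangles chromosomes, averaged 2.21 ± 0.513 CPM in KO iso and 3.01 ± 1.09 CPM in KO vehicle hearts, with 2.44 ± 0.389 CPM in WT iso and 2.49 ± 0.578 CPM in WT vehicle hearts (SD, n = 5 each). Its log2 fold change with isoproterenol was −0.40 in KO (adjusted p = 0.236, edgeR) and −0.03 in WT. Ccna2, cyclin A2 of S phase and early mitosis, averaged 1.02 ± 0.125 CPM in KO iso and 1.37 ± 0.436 CPM in KO vehicle hearts (SD, n = 5 each), a log2 fold change of −0.45 (adjusted p = 0.227, edgeR). Cdk1, the kinase that triggers mitosis, was counted only 2 to 27 times per library. Its log2 fold change was 0.26 in KO (95% interval −0.60 to 1.12) and 0.57 in WT (−0.21 to 1.35), so a 2-fold rise lies within both intervals.

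Racgap1, a subunit of the centralspindlin complex of cytokinesis, averaged 1.47 ± 0.467 CPM in KO iso and 1.05 ± 0.247 CPM in KO vehicle hearts (SD, n = 5 each), a log2 fold change of 0.46 (adjusted p = 0.219, edgeR). Ube2c, a ubiquitin-conjugating enzyme that works with the anaphase-promoting complex, averaged 0.443 ± 0.229 CPM in WT iso and 0.797 ± 0.325 CPM in WT vehicle hearts (SD, n = 5 each). Its log2 fold change of −0.79 in WT (95% interval −1.51 to −0.08, adjusted p = 0.158, edgeR) rested on 3 to 24 counts per library. Anln, a scaffold of the contractile ring, had 6.95 CPM in KO iso replicate 5, against 1.47 to 2.79 CPM in the other 4 KO iso libraries, and its log2 fold change in KO was 0.59 (adjusted p = 0.311, edgeR). Cenpa averaged 5.60 ± 0.951 CPM in KO iso, 5.70 ± 1.07 CPM in KO vehicle, 6.75 ± 0.894 CPM in WT iso and 7.10 ± 0.580 CPM in WT vehicle hearts (SD, n = 5 each).

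With isoproterenol, 52.5% of all tested genes had a log2 fold change above 0 in KO and 50.8% in WT. Of the 21 tested mitotic members, 17 had a negative log2 fold change in KO (median −0.19) and 15 in WT (median −0.03). In either genotype 0 fell past the threshold. In KO 0 of 21 also had an unadjusted p under 0.05 in edgeR, where 3435 of all 14878 tested genes did. DESeq2 and limma-voom likewise called 0 members in KO. Of all genes in KO, DESeq2 called 778 higher and 746 lower of 14208, and limma-voom 700 and 641 of 14878. In WT 2 of 21 had an unadjusted p under 0.05 in edgeR, where 3421 of all tested genes did. Each of DESeq2 and limma-voom called 1 mitotic member in WT, which was higher. Of all genes in WT, DESeq2 called 751 higher of 15468, and limma-voom 678 of 14878. Of the 21 intervals, 15 in KO and 16 in WT stayed within a 2-fold change in either direction, and 3 in KO and 7 in WT within a 1.5-fold change. A change smaller than these intervals was not detectable with these libraries for most mitotic members. Many mitotic members were highest in the same library of a group, so their signs are not separate observations.

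**Figure D4:**
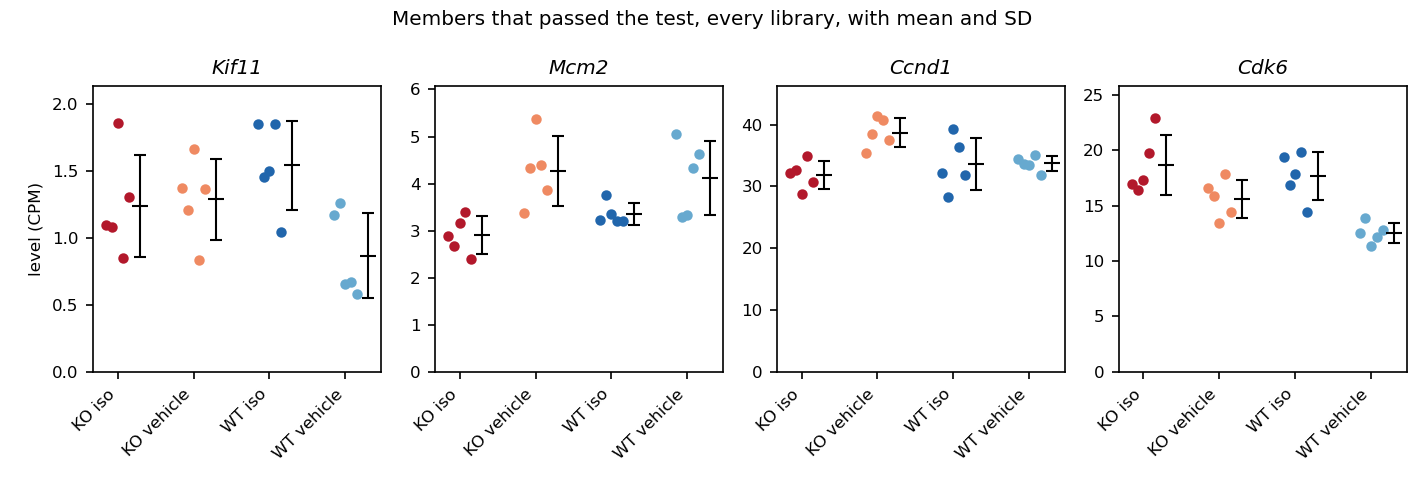
Level of Kif11, Mcm2, Ccnd1 and Cdk6 in every library, in CPM, in KO iso, KO vehicle, WT iso and WT vehicle hearts; points are libraries and bars give the mean and SD (n = 5). KO iso points lie below all KO vehicle points for Ccnd1, and all WT iso points of Cdk6 lie above all WT vehicle points.

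Summed over the 25 mitotic members, the level was 33.5 ± 4.10 CPM in KO iso and 37.5 ± 6.45 CPM in KO vehicle hearts, and 35.7 ± 7.00 CPM in WT iso and 38.1 ± 6.74 CPM in WT vehicle hearts (SD, n = 5 each). The groups overlapped, and each difference was smaller than the SD of the vehicle group. Over all libraries the sum ran from 29.4 to 47.6 CPM, and Mki67 made up 16.0% to 31.3% of it and Cenpa 10.3% to 26.7%. Without these 2 genes the sum was 20.0 ± 4.24 CPM in KO iso, 22.0 ± 3.93 CPM in KO vehicle, 20.9 ± 3.89 CPM in WT iso and 20.7 ± 4.31 CPM in WT vehicle hearts (SD, n = 5 each).

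Within groups, a few libraries held the highest value for many mitotic members. In WT iso hearts, replicate 1 was the highest of the 5 libraries for 16 of the 25 mitotic members. In KO vehicle hearts replicate 3 was highest for 14, and in WT vehicle hearts replicates 1 and 2 were highest for 10 and 11. WT iso replicate 1 also had the highest summed level of 12 macrophage markers in its group, 308 CPM. The other WT iso libraries had 194 to 245 CPM. It was also highest for 10 lymphocyte markers, with 4.27 CPM against 1.12 to 1.88 CPM in the others. In KO iso hearts replicate 5 was highest for 10 members, and it also had 1610 CPM of fibroblast markers, where the group median was 687 CPM. These 8 markers include the collagen genes Col1a1 (310 to 9006 counts per library over the series) and Col1a2 (721 to 15428 counts). The share of Col1a1 and Col1a2 in the 1610 CPM was not worked out. KO vehicle replicate 3 did not stand out for macrophage markers (204 CPM, with 200 to 208 CPM in the group). Nor did it for fibroblast markers (556 CPM, with 492 to 621 CPM in the group). WT vehicle replicate 1 had the highest fibroblast sum of its group, 541 CPM against 466 to 488 CPM. It was also highest for lymphocyte markers (2.65 CPM against 1.18 to 1.80 CPM) and smooth muscle and pericyte markers (701 CPM against 604 to 657 CPM). For macrophage markers WT vehicle replicates 1 and 2 had 203 and 204 CPM, against 170 to 195 CPM. The part of these cell types in the mitotic levels was not tested.

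**Figure D5:**
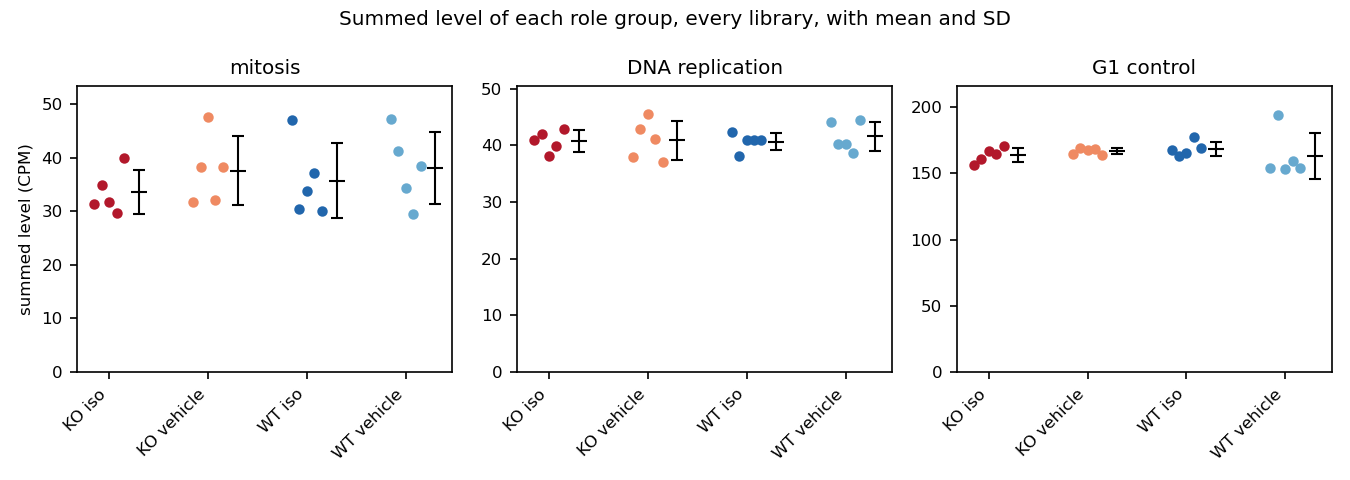
Summed level of the 25 mitotic, 10 replication and 10 G1 control members in every library, in CPM, in KO iso, KO vehicle, WT iso and WT vehicle hearts; points are libraries and bars give the mean and SD (n = 5). The 4 groups overlap in the mitotic and replication panels. In the G1 control panel WT vehicle replicate 2 stands above all other libraries. The other WT vehicle libraries (154 to 160 CPM) lie below all WT iso and all KO vehicle libraries there. KO iso replicate 1 (156 CPM) lies within their range.

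Among the replication members, Mcm2, a subunit of the replicative helicase, was lower with isoproterenol in KO hearts. It had 2.89, 2.67, 3.16, 3.41 and 2.40 CPM in KO iso hearts, against 3.38, 4.34, 5.37, 4.40 and 3.87 CPM in KO vehicle hearts. Only the highest KO iso library reached the lowest KO vehicle library. The log2 fold change of Mcm2 in KO was −0.55 (95% interval −0.84 to −0.25, SE 0.145), and it passed (adjusted p = 0.0150, edgeR). The call was lost without KO iso replicate 5 (−0.47, adjusted p = 0.0508, edgeR) or without KO vehicle replicate 3 (−0.46, adjusted p = 0.0538, edgeR). Without KO iso replicate 5 and WT vehicle replicate 2 together it passed (−0.47, adjusted p = 0.0415, edgeR).

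In WT hearts Mcm2 had 3.23, 3.77, 3.35, 3.21 and 3.21 CPM with isoproterenol, against 5.05, 3.28, 3.33, 4.32 and 4.63 CPM with vehicle. WT vehicle replicates 2 and 3 lay within the WT iso values and the other 3 above them. The log2 fold change was −0.30 (SE 0.143, adjusted p = 0.204, edgeR), and the response in KO minus that in WT was −0.25 (adjusted p = 0.780, edgeR). Averaged over genotypes the log2 fold change of Mcm2 was −0.42 with an SE of 0.102 (adjusted p = 0.00352, edgeR), and this call held without any 1 library (highest adjusted p = 0.00932). Mcm2 lies at chr6:88883474-88898780 (GRCm38, ENSMUSG00000002870.8).

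The other 5 helicase subunits did not pass. In KO hearts with isoproterenol, the log2 fold change was −0.29 for Mcm3, −0.06 for Mcm4, 0.07 for Mcm5, 0.21 for Mcm6 and 0.22 for Mcm7, and the lowest adjusted p of these 5 was 0.241 (edgeR). Mcm3 averaged 2.42 ± 0.0395 CPM in KO iso and 3.00 ± 0.489 CPM in KO vehicle hearts (SD, n = 5 each), and KO vehicle replicate 5, at 2.29 CPM, lay below all KO iso libraries. In WT hearts the log2 fold changes of these 5 ran from −0.12 (Mcm5) to 0.04 (Mcm6). The proteins of these 6 genes assemble into 1 ring, but the difference between Mcm2 and the other subunits was not tested.

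Pcna averaged 9.89 ± 0.654 CPM in KO iso and 10.2 ± 0.997 CPM in KO vehicle hearts, and 9.69 ± 0.862 CPM in WT iso and 10.1 ± 0.980 CPM in WT vehicle hearts (SD, n = 5 each). Its log2 fold change was −0.04 in KO and −0.06 in WT, with 95% intervals of −0.22 to 0.15 in KO and −0.24 to 0.13 in WT. Rrm1, the large subunit of ribonucleotide reductase, had log2 fold changes of 0.17 in KO and 0.13 in WT, and Rrm2, the small subunit made in S phase, of 0.05 in KO and −0.28 in WT. Tyms had 0.27 in KO and 0.15 in WT. None of these passed (edgeR). Summed over the 10 replication members the level was 40.8 ± 1.88 CPM in KO iso, 40.9 ± 3.49 CPM in KO vehicle, 40.7 ± 1.56 CPM in WT iso and 41.6 ± 2.61 CPM in WT vehicle hearts (SD, n = 5 each). For all 10 the interval in either genotype stayed within a 2-fold change.

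Among the G1 control members, Cdk6, a kinase partner of the D-type cyclins, was higher with isoproterenol in WT hearts. It had 19.4, 16.9, 17.9, 19.8 and 14.4 CPM in WT iso hearts, against 12.5, 13.8, 11.4, 12.1 and 12.8 CPM in WT vehicle hearts, and the groups did not overlap. The log2 fold change of Cdk6 in WT was 0.51 (95% interval 0.31 to 0.70, SE 0.0972), and it passed (adjusted p = 9.4e-04, edgeR). In KO hearts it had 16.9, 16.4, 17.3, 19.7 and 22.9 CPM with isoproterenol, against 16.6, 15.8, 13.4, 17.8 and 14.4 CPM with vehicle. The KO groups overlapped, with KO iso replicates 4 and 5 above all KO vehicle libraries, and the log2 fold change of 0.26 did not pass (adjusted p = 0.0875, edgeR).

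The Cdk6 response in KO minus that in WT was −0.25 (SE 0.136, adjusted p = 0.671, edgeR). KO vehicle hearts averaged 15.6 ± 1.73 CPM of Cdk6 and WT vehicle hearts 12.5 ± 0.904 CPM (SD, n = 5 each), a log2 fold change of 0.32 that did not pass (adjusted p = 0.258, edgeR) but passed with no filter on low counts (adjusted p = 0.0490). Averaged over genotypes Cdk6 rose by 0.38 with isoproterenol (SE 0.0679, adjusted p = 1.5e-04, edgeR). Both calls of Cdk6 held without any 1 library, with a highest adjusted p of 0.00610 in WT and 5.5e-04 averaged (edgeR). Without KO iso replicate 5 and WT vehicle replicate 2 together the log2 fold change of Cdk6 was 0.54 in WT, 0.17 in KO and 0.36 averaged (adjusted p = 1.2e-04, 0.251 and 1.1e-04, edgeR). Cdk6 lies at chr5:3341485-3531008 (GRCm38, ENSMUSG00000040274.11).

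Ccnd1, the D-type cyclin with the highest level per kilobase, was lower with isoproterenol in KO hearts. It had 32.1, 32.6, 28.7, 35.0 and 30.8 CPM in KO iso hearts, against 35.5, 38.4, 41.4, 40.7 and 37.5 CPM in KO vehicle hearts, and the groups did not overlap. The log2 fold change of Ccnd1 in KO was −0.28 (95% interval −0.43 to −0.13, SE 0.0735), it passed (adjusted p = 0.0139, edgeR), and the call held without any 1 library (highest adjusted p = 0.0428). Without KO iso replicate 5 and WT vehicle replicate 2 it was −0.26 (adjusted p = 0.0267, edgeR).

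In WT hearts Ccnd1 had 32.2, 28.3, 39.2, 36.4 and 31.9 CPM with isoproterenol, against 34.4, 33.7, 33.5, 35.1 and 31.9 CPM with vehicle. The WT iso libraries spread to both sides of the WT vehicle libraries, and the log2 fold change was 0.00 (95% interval −0.15 to 0.15). The response in KO minus that in WT was −0.28 (SE 0.104, adjusted p = 0.518, edgeR). Of the 4 groups, KO vehicle hearts had the highest mean (38.7 ± 2.41 CPM), against 33.7 ± 1.19 CPM in WT vehicle hearts (SD, n = 5 each), a log2 fold change of 0.20 (adjusted p = 0.400, edgeR). Ccnd1 lies at chr7:144929931-144939925 (GRCm38, ENSMUSG00000070348.5).

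The other G1 control members did not pass in the isoproterenol comparisons. Ccnd2, cyclin D2, had a median of 43.1 CPM in KO iso, 43.5 CPM in KO vehicle, 44.1 CPM in WT iso and 41.8 CPM in WT vehicle hearts, and WT vehicle replicate 2 alone reached 71.9 CPM. Ccnd3, cyclin D3, had log2 fold changes of 0.17 in KO and 0.11 in WT (adjusted p = 0.196 and 0.446, edgeR), and Cdk4 of 0.07 in KO and 0.09 in WT. Of the inhibitors, Cdkn1a, a target of p53 that arrests the cycle, averaged 10.9 ± 1.24 CPM in KO iso and 12.1 ± 2.17 CPM in KO vehicle hearts, and 11.5 ± 1.95 CPM in WT iso and 10.9 ± 3.61 CPM in WT vehicle hearts (SD, n = 5 each). Cdkn1b, an inhibitor of cyclin E and Cdk2 in resting cells, had log2 fold changes of 0.15 in KO and 0.00 in WT. Ccne1, a cyclin E, was counted 5 to 32 times per library, and its log2 fold change was 0.30 in KO and 0.48 in WT (adjusted p = 0.623 and 0.360, edgeR). For the 10 G1 control members the summed level was 164 ± 5.54 CPM in KO iso, 167 ± 2.28 CPM in KO vehicle, 168 ± 5.44 CPM in WT iso and 163 ± 17.5 CPM in WT vehicle hearts (SD, n = 5 each). The median of the WT vehicle sums was 154 CPM, and replicate 2 alone reached 194 CPM. Without that library the WT vehicle sums lay below those of all WT iso (163 to 177 CPM) and KO vehicle libraries (164 to 169 CPM). They overlapped with the KO iso sums (156 to 171 CPM), as KO iso replicate 1 lay below WT vehicle replicate 4 (160 CPM). Of the 10 members, Ccnd2 and Ccnd1 weighed most in these sums, at 43.7 and 34.5 CPM averaged over all libraries.

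Comparing genotypes, 0 of the 40 tested members passed in KO iso against WT iso hearts, where 0.181% of all tested genes passed (edgeR, with 2 members at an unadjusted p under 0.05). Likewise 0 of 40 passed in KO vehicle against WT vehicle hearts, where 0.128% passed (4 members at an unadjusted p under 0.05). DESeq2 and limma-voom also called 0 members in each. Averaged over treatments 0 members passed, where 0.847% of all genes passed (2 members at an unadjusted p under 0.05, 0 calls by DESeq2 or limma-voom). The lowest adjusted p of that average was that of Cenpa, adjusted p = 0.125 in edgeR at −0.30 on the log2 scale (SE 0.0929). With no filter on low counts Cenpa passed (adjusted p = 0.0377, edgeR), where 178 of 32544 genes were higher and 172 lower. For the difference of the isoproterenol responses, KO minus WT, 0 members and 0 genes in all passed (edgeR, with 2 members at an unadjusted p under 0.05, and 0 members by DESeq2 or limma-voom), so 0% of all tested genes did. Of the 40 intervals, 35 under isoproterenol, 37 under vehicle and 23 of the difference of responses stayed within a 2-fold change in either direction. Of all 14878 tested genes, 1935 had an unadjusted p under 0.05 under isoproterenol and 1236 under vehicle (edgeR). Averaged over treatments 1902 did, and for the difference of responses 1142 did. The comparisons share groups, and calls in KO and not in WT, or the reverse, do not show a difference between genotypes.

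Counts of 5 members were too low for the filter: Ccnb1, the cyclin B1 partner of Cdk1, the kinases Bub1, Aurkb and Plk1 of mitosis, and the transcription factor gene E2f1. Ccnb1 was counted 0 to 10 times per library, Bub1 1 to 12 times, Aurkb 1 to 11 times, Plk1 2 to 20 times and E2f1 2 to 16 times. The count of 0 for Ccnb1, in KO vehicle replicate 3, allows a level of up to 0.192 CPM, the worth of 3 counts there (counting error only). With no filter none of the 5 passed in edgeR, and the lowest unadjusted p was that of E2f1 in KO iso against WT iso hearts (log2 fold change 0.96, SE 0.473, unadjusted p = 0.0390, adjusted p = 0.490).

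Further genes of the same pathways were counted beside the members. Averaged over genotypes with isoproterenol, 1 of 23 tested further mitotic genes rose and 1 fell, 1 of 34 replication genes fell, 2 of 29 G1 and checkpoint genes rose, and 4 of 17 p53 targets rose (edgeR). Of all tested genes 9.76% were higher and 9.07% lower in that average, and by genotype 4.75% were higher in KO and 4.12% lower in WT. Of the condensin subunits, Ncaph rose (0.76, adjusted p = 0.00165) and Ncapd2 fell (−0.23, adjusted p = 0.0153) in that average (edgeR). Ncaph averaged 1.27 ± 0.191 CPM in KO iso and 0.718 ± 0.212 CPM in KO vehicle hearts, and 0.921 ± 0.105 CPM in WT iso and 0.560 ± 0.127 CPM in WT vehicle hearts (SD, n = 5 each). Ncaph rose by 0.78 in KO (adjusted p = 0.0268, edgeR) and had 0.75 in WT (adjusted p = 0.0586). Ncapd2 fell by 0.41 on the log2 scale in WT (adjusted p = 0.00613, edgeR) and had −0.05 in KO.

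Pola2, a subunit of DNA polymerase alpha, fell by 0.26 averaged over genotypes (adjusted p = 0.0145, edgeR). Wee1, the kinase that holds Cdk1 inactive, averaged 14.3 ± 2.09 CPM in KO iso and 9.77 ± 1.59 CPM in KO vehicle hearts (SD, n = 5 each) and rose by 0.55 in KO (adjusted p = 0.0207, edgeR). Ccng2, an atypical cyclin, rose by 0.29 averaged over genotypes (adjusted p = 0.0397, edgeR). Of the p53 targets, Phlda3 and the death receptor gene Eda2r rose in WT, by 0.65 and 0.93 on the log2 scale (adjusted p = 0.00461 and 0.0248, edgeR). Mdm2, the ubiquitin ligase that degrades p53, rose in KO by 0.22 (adjusted p = 0.0458, edgeR), and Gadd45a, a growth arrest gene, rose by 0.47 averaged over genotypes (adjusted p = 0.0191, edgeR). The member Cdkn1a, itself a p53 target, had −0.03 in that average (adjusted p = 0.884, edgeR). For the difference of the isoproterenol responses, 0 of 29 G1 and checkpoint genes and 0 of 17 p53 targets passed (lowest adjusted p = 0.518 in each list, edgeR). The rises given in a single genotype were thus not shown to differ between the genotypes.

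Markers of the cell types of the heart moved with isoproterenol beside these genes. Of all tested genes 4.75% were higher and 4.29% lower in KO, and 4.64% were higher and 4.12% lower in WT. Of 12 macrophage markers 4 rose in KO and 6 in WT, and their summed level was 228 to 260 CPM in KO iso against 200 to 208 CPM in KO vehicle hearts, and 194 to 308 CPM in WT iso against 170 to 204 CPM in WT vehicle hearts. Of 8 fibroblast markers 3 rose in each genotype, and their sum was 607 to 1610 CPM in KO iso against 492 to 621 CPM in KO vehicle hearts, and 533 to 666 CPM in WT iso against 466 to 541 CPM in WT vehicle hearts. KO iso replicate 5 held the value of 1610 CPM, where the group median was 687 CPM. Of 9 cardiomyocyte markers 3 fell in each genotype, and the sum of all 9 was 23003 to 30266 CPM in KO iso, 31038 to 33658 CPM in KO vehicle, 28201 to 30635 CPM in WT iso and 32978 to 37917 CPM in WT vehicle hearts. Lymphocyte markers were near 0: their 10 genes summed to 1.12 to 4.27 CPM per library, and Cd3d had no count in 16 of the 20 libraries. Of 8 endothelial markers 3 rose in WT and 1 fell in KO. Their sum was 554 to 599 CPM in KO iso against 553 to 587 CPM in KO vehicle hearts. In WT hearts it was 554 to 620 CPM with isoproterenol against 527 to 552 CPM with vehicle, with no overlap. Of 8 smooth muscle and pericyte markers 2 rose in each genotype, and their sum was 751 to 1756 CPM in KO iso against 657 to 776 CPM in KO vehicle hearts, and 716 to 822 CPM in WT iso against 604 to 701 CPM in WT vehicle hearts. KO iso replicate 5 held the value of 1756 CPM, and the other KO iso libraries reached at most 789 CPM. Of 8 tested erythroid and platelet markers, Pf4 rose in WT (log2 fold change 0.69, adjusted p = 0.00639, edgeR) and no other passed in either genotype. Their median log2 fold change was 0.36 in KO and −0.44 in WT. Of these 8, 2 in KO and 6 in WT had an unadjusted p under 0.05 (edgeR). Of all 14878 tested genes, 3435 in KO and 3421 in WT did. The sum of the 9 listed was 313 to 648 CPM in KO iso against 255 to 374 CPM in KO vehicle hearts, and 228 to 350 CPM in WT iso against 295 to 467 CPM in WT vehicle hearts. Of 5 tested adipocyte markers 0 passed in either genotype by edgeR, DESeq2 or limma-voom, and 0 had an unadjusted p under 0.05 in edgeR. The part of these cell types in the values of Kif11, Cdk6, Mcm2 and Ccnd1 was not tested.

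Some members share exon bases with another gene, and the strand setting of the counting and its treatment of reads with several matches are not given in the sources used here. Among the members that passed, Ccnd1 overlaps LTO1 and Cdk6 overlaps Gm17590, each on the opposite strand, and neither Kif11 nor Mcm2 overlaps another gene. Of the other members, 13 overlap a gene on the opposite strand, among them Cdc20 (Elovl1), Ube2c (Tnnc2) and Cdkn1a. On the same strand Top2a overlaps Gm23451, and Mcm7 overlaps Mir25 and Mir93. Ccnb1, Ccnb2, Pcna, Tyms and Ccnd3 have annotated pseudogenes of like name. The values of members with an overlap or a pseudogene are less certain for that reason.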

How the data were processed

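One table of raw counts, deposited by the authors, gave 20 libraries of whole-heart total RNA. The tools named in the submitters' processing notes are HISAT2 2.1.0 (aligner), featureCounts 1.6.3 (counter), limma 3.40.6 and R 3.6.0, with genome build GRCm38. The annotation release, strand setting and treatment of multi-mapped reads are not given in the sources used here. Every one of the 20 count columns was tied to a sample by its title, and 0 columns lacked a sample. Groups came from the labels, 5 libraries each. Replicate numbers follow record order and pair nothing. No pair of libraries within a group agreed within sampling noise (lowest chi-square per gene 3.82).

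Symbols, exon lengths and overlaps came from GENCODE vM21, in which 55154 of 55335 IDs were found (54587 with the same version). The members, their roles and all lists were chosen with earlier results of these data known. The lists therefore get no test of their own and are described by counts and medians beside those of all tested genes. Members given in full were those past the threshold, the 2 with the smallest p per role and isoproterenol comparison, the highest and lowest per role, and 9 fixed by name (Mki67, Top2a, Cdk1, Ccnb1, Mcm2, Pcna, Ccnd1, Ccnd2 and Cdkn1a). Anln, Mcm4 to Mcm7, Ccnd3, Cdk4 and Cdkn1b were added after their values were seen.

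Genes were filtered with filterByExpr, scaled by TMM and fitted in edgeR 4.0.16 (R 4.3.3) with a robust quasi-likelihood fit of 4 group means (16 residual degrees of freedom), adjusted by Benjamini-Hochberg over 14878 genes at 0.05. CPM are counts per TMM-scaled library size, and fold changes carry a prior count of 0.125. The SE was taken from the fold change and its F statistic. Alternatives were DESeq2 1.42.0, limma-voom (limma 3.58.1), upper quartile and RLE scaling, removal of mitochondrial genes, no filter, fits of only the 2 groups compared, and each library left out. Promoter windows came from RefSeq GRCm38.p6.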

Additional observations from a re-analysis of the deposited data

Results flagged for a closer look

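In 8 of 100 groups of 5 libraries checked (22 named members and the 3 sums, in 4 groups each), the highest or lowest library lay apart from the other 4, by a gap over the whole range above Dixon's critical value of 0.71. Chance flags about 1 in 20 groups. In WT iso hearts replicate 1 had 2.19 CPM of Ccna2, against 1.05 to 1.36 CPM in the other 4, and 0.520 CPM of Ccnb1, against 0.128 to 0.211 CPM. Also in WT iso hearts, replicate 2 had 3.77 CPM of Mcm2, against 3.21 to 3.35 CPM, and 1.03 CPM of Tyms, against 1.61 to 1.79 CPM. Replicate 5 of the same group had 1.05 CPM of Rrm2, against 0.642 to 0.751 CPM. In KO iso hearts replicate 2 had 2.29 CPM of Racgap1, against 1.09 to 1.36 CPM. In WT vehicle hearts replicate 2 had 71.9 CPM of Ccnd2, against 35.9 to 43.3 CPM, and a summed level of G1 control members of 194 CPM, against 154 to 160 CPM. What set these libraries apart was not tested.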

How the results depend on the processing

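All 6 called values (Kif11 and Cdk6 in WT, Mcm2 and Ccnd1 in KO, Cdk6 and Mcm2 averaged over genotypes) kept their direction in all 166 alternative values. They lost a call only when 1 library was left out: Kif11 in 4 and Mcm2 in KO in 2 of 20 such fits. With the libraries left out in turn, the count of members called ranged from 1 to 2 for isoproterenol in KO, from 1 to 2 in WT and from 2 to 3 averaged over genotypes, and stayed at 0 in the 4 other comparisons. With no filter on low counts the count was 1 for KO against WT under vehicle (Cdk6), where the filtered fit gave 0. It was also 1 for KO against WT averaged over treatments (Cenpa), again 0 with the filter. The unfiltered fit called more genes of all kinds: 38 higher and 79 lower of 32544 under vehicle, against 9 and 10 of 14878. Averaged over treatments it called 178 higher and 172 lower, against 57 and 69 with the filter. Of 3497 alternative values of the 127 named values that had not passed, 10 passed, 8 of them in the isoproterenol average (Ccnd1 with upper quartile and RLE scaling and in 4 fits without 1 library, Kif11 and Mki67 in 1 such fit each), and 160 changed sign without passing either time. A fit of only the 2 groups compared has no value for the averages and the difference of responses. Leaving out KO iso replicate 5 and WT vehicle replicate 2 together was chosen after seeing the data and changed no call among the named values. No paired analysis was possible because the labels give no replicate numbers. Of the roles, the mitotic members had the fewest counts (median 16.5 per library) and the widest spread within groups (median coefficient of variation 34.8%).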
